A study of Bos taurus with 2 samples.

Results

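The T cell receptor complex, its coreceptors and its first kinases were measured with a bovine oligonucleotide microarray in the blood of Holstein cattle (Bos taurus). The 10 genes are CD3D, CD3E, CD3G and CD247, which encode the signalling chains of the receptor; CD4, CD8A and CD8B, which encode the coreceptors; the adhesion receptor gene CD2; and the kinase genes LCK and ZAP70. Their probes were taken by gene name or by the RefSeq accession on the array, with no use of measured values, which gave 26 of the 43653 distinct probes. All 10 genes had at least 1 probe above background on both arrays, among 10339 genes that did. The study has 2 groups of 1 array each, total RNA from 1 blood specimen of low and 1 of high feed efficiency, labelled with Cy3. The groups are set apart by the animals' residual feed intake, the feed eaten beyond what size and production call for, and the specimen of low feed efficiency is that of high residual feed intake. The labels give no treatment, age or sex, nor the number of animals behind a specimen. The file headers give the same slide and the same scan for the 2 arrays.

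A T cell recognises a peptide held by a major histocompatibility complex molecule through the antigen-binding chains of its receptor, which have almost no cytoplasmic part of their own. The signal is carried by the CD3 chains and the zeta chain (CD247), whose tails LCK phosphorylates. ZAP70 binds the phosphorylated tails and passes the signal on to adaptor proteins. CD4 and CD8 bind class II and class I molecules respectively and bring LCK to the receptor. In cattle, gamma-delta T cells that carry the WC1 receptor are common in blood, and these cells use the same CD3 and zeta chains but lack CD2, CD4 and CD8. Natural killer cells also express CD247, LCK and ZAP70. In whole blood, fewer T cells and less RNA per T cell cannot be told apart.

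Values are background-subtracted median intensities of a spot. For a difference, each array was divided by the 75th percentile of its probes, 98 for low and 81 for high feed efficiency, and differences are given as log2 of the low over the high efficiency value. With 1 array per group there is no test, no p-value and no replicate check of any difference, and precision is limited by the number of arrays. The technical spread was taken from replicate spots of one probe. The SD of the log2 difference over such spots was 0.10 for bright probes (12 probes) and 0.23 for dim ones (24 probes). Between different probes of one gene it was larger, with a pooled SD of 0.25 across 4995 genes and of 0.19 across the 7 members with over 1 probe above background. These spreads are technical and stand for no animal.

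None of the 10 genes was at least 2-fold apart between the specimens, where 0.938% of all genes were. None was 1.5-fold apart either (5.82% of all genes were). The 10 genes had 22 probes that passed the background cut in both specimens, none of them 2-fold apart (1.04% of all probes were). By the brightest probe of each gene, 8 of 10 had a lower scaled level in low feed efficiency (55.6% of all genes did), and CD3G and ZAP70 were the other two. Of the 22 probes, 16 lay below 0 (53.3% of all probes did). The differences ran from -0.41 for CD4 to 0.22 for CD3G, with a median of -0.15 against -0.04 over all genes. All 10 members were brighter than the median gene, with 60.9% (CD8B) to 97.9% (CD4) of genes dimmer. The set of all genes was not matched to them in brightness. Of the 10 differences, 6 lay between the quartiles of all genes, -0.22 and 0.15. CD4, LCK, CD8A and CD3G lay outside. The direction rests on the scaling: the low efficiency array was brighter as a whole. Before scaling, 8 of 10 members were brighter on it, all but CD4 and LCK, as were 80.0% of all genes. With scaling on the spike-in controls 1 of 10 members, CD4, was lower in low feed efficiency (12.3% of all genes were) and the median was 0.21 against 0.32 over all genes. Relative to the median of all genes, which a scaling by one factor leaves unchanged, the members' median was -0.11. This value was -0.07 with loess, -0.05 with quantile normalization, -0.04 in the authors' table moved by 1 row and -0.03 with normexp background correction.

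**Figure D1:**
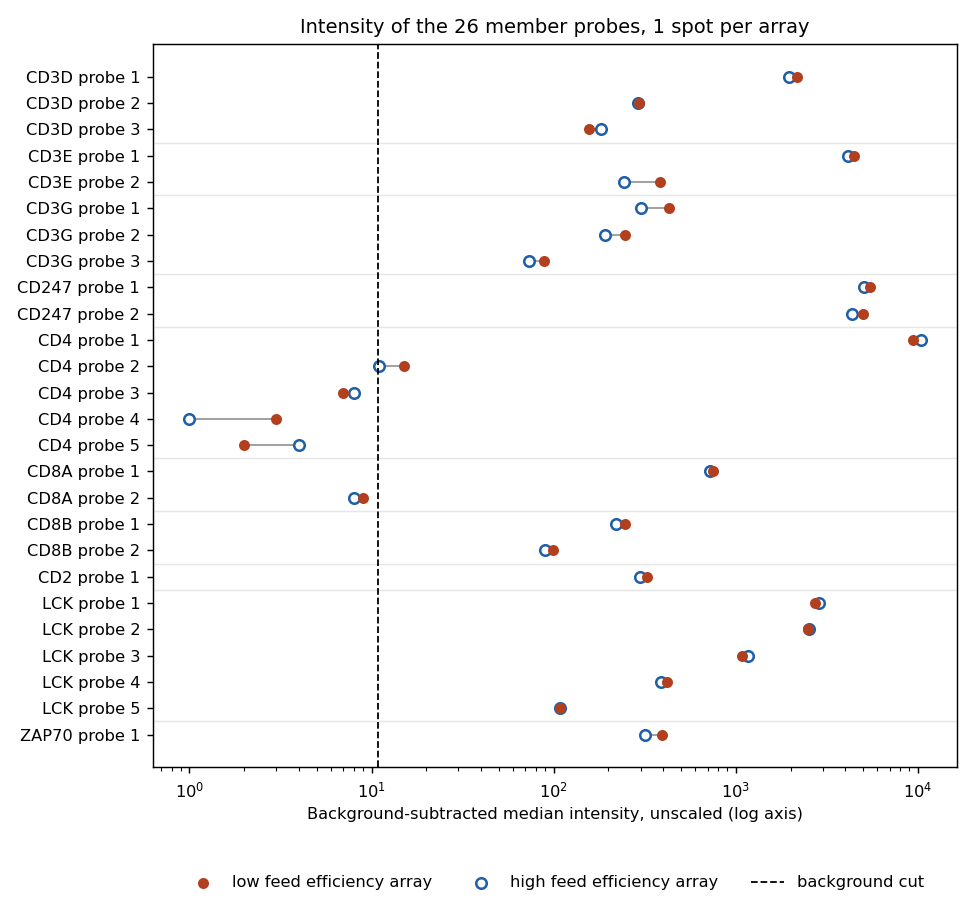
Unscaled background-subtracted median intensity (log axis) of the 26 member probes on the low efficiency array (filled) and the high efficiency array (open), 1 spot per array, with probes of a gene numbered from the brightest and the background cut of 10.9 dashed. The members have probes from 1 to 10394, and of the 5 CD4 probes 1 is bright while 4 lie near or below the cut.

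The CD3 genes lie side by side in the genome, CD3E, CD3D and CD3G in this order, with no other protein-coding gene between neighbours in the gene table used. CD3G, the gamma chain gene, was the member farthest above 0. Its 3 probes read 428 against 303, 246 against 192 and 89 against 73 (low against high feed efficiency). The differences were 0.22, 0.08 and 0.01, so that every CD3G probe lay above 0, as was the case for 24.7% of genes with 3 probes above background. The first lies over 2 spot SDs above 0, the others within 1 SD of it. The array's cross-references list no Ensembl transcript for the first probe and 1 for each of the others. CD3G stayed above 0 under all 14 other ways of processing, from 0.01 with its dimmest probe to 0.58 with spike-in scaling.

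CD3D, the delta chain gene, went the other way at every probe. Its probes read 2183 against 1958, 293 against 291 and 156 against 181, and the differences were -0.12, -0.26 and -0.49. Of genes with 3 probes above background, 26.4% had all of them below 0. The spread between the 3 CD3D probes (SD 0.19) was larger than the distance of the brightest probe from 0. For the dimmest of them, at -0.49, the cross-references list no Ensembl transcript. With normexp background correction CD3D had 0.04, with quantile normalization -0.001 and with spike-in scaling 0.24. The spot of its brightest probe was unflagged on the high efficiency array, and with spots flagged good alone CD3D had -0.26.

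CD3E, the epsilon chain gene, had probes on both sides of 0. The bright probe read 4473 against 4130, a difference of -0.16, and the second 383 against 242, a difference of 0.39, which was the largest positive value of any member probe. No direction can be given for CD3E, since its mean over probes was 0.11 with an SD of 0.39. Among all genes with over 1 probe, 41.8% had probes on both sides of 0. The zeta chain gene CD247 had 2 probes that read alike, 5447 against 5072 and 4992 against 4365, with differences of -0.17 and -0.08. The probes around these spots, within 5 rows and columns, had median differences of -0.16 and -0.15, and with this local median subtracted CD247 had -0.02. The part of the spot's position in this value was not tested.

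**Figure D2:**
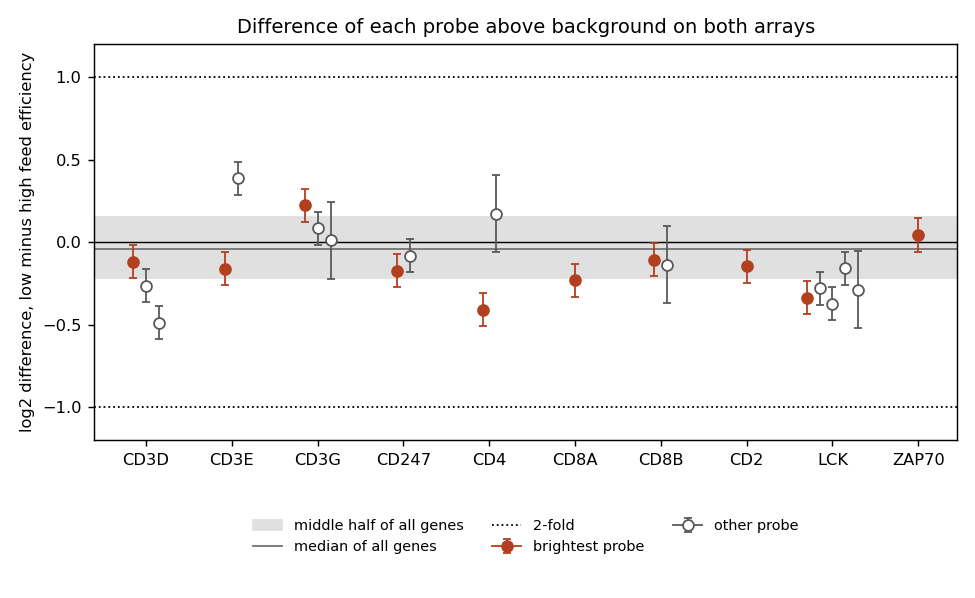
log2 difference, low minus high efficiency, for the 22 member probes above background on both arrays, with the brightest probe of each gene filled and bars of 1 SD over replicate spots (0.10 for bright, 0.23 for dim probes). The grey band spans the quartiles of all genes (-0.22 to 0.15), and every member probe lies inside the dotted 2-fold lines; all 5 LCK probes lie below 0 and all 3 CD3G probes above it, while CD3E and CD4 have probes on both sides.

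CD4, the coreceptor of helper T cells, had the difference farthest from 0, but only 1 of its 5 probes was bright. That probe (A_73_104193) read 9466 on the low and 10394 on the high efficiency array, a difference of -0.41 or 0.753-fold. Of all genes, 15.5% had a difference of larger size. A second probe read 15 against 11, just above the background cut of 10.9 on both arrays, with a difference of 0.17 and a spot SD of 0.23. The other 3 CD4 probes read 7 against 8, 3 against 1 and 2 against 4, all under the cut. The array's cross-references list 1 or 2 Ensembl transcripts for each of the 4 dim probes and none for the bright one. The level and the difference given for CD4 therefore rest on a single probe. Over both probes above background the mean was -0.12 with an SD of 0.41. By the bright probe CD4 kept a negative value under every scaling tried, from -0.42 with scaling on the median of detected probes to -0.05 with spike-in scaling. The probes around this spot had a median difference of -0.14, and with it subtracted CD4 had -0.27.

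CD8A, which encodes the chain present in both CD8 dimers, read 747 against 725 at its probe above background, a difference of -0.23. Its second probe, at 9 against 8, was under the background cut on both. CD8B, its neighbour in the genome and the partner chain on cytotoxic T cells, read 246 against 219 and 99 against 90, with differences of -0.11 and -0.14. The 2 CD8B probes had nearly the same difference (SD 0.02), and 38.3% of genes with 2 probes above background had both below 0. Relative to the median of all genes, CD8A had -0.20 to -0.10 and CD8B -0.14 to -0.06 under the other ways of processing. CD2, the adhesion receptor that binds CD58 or CD48 on a partner cell, had a single probe that read 326 against 298, a difference of -0.15. The CD2 value ranged from -0.25 with the local median subtracted to 0.21 with spike-in scaling.

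LCK, the kinase that starts the signal, had the most probes in agreement. Its 5 probes read 2729 against 2849, 2506 against 2516, 1089 against 1165, 420 against 387 and 108 against 109. The differences were -0.34, -0.28, -0.37, -0.16 and -0.29, a mean of -0.29 with an SD of 0.08 over probes. All 5 lay below 0, as in 21.1% of the 133 genes with 5 probes above background. The array's cross-references list 1 Ensembl transcript for each of these probes, and the probes are no replicates of the specimen. LCK lay below the median of all genes by -0.31 to -0.19 under the 14 other ways of processing, and its unadjusted value turned positive, to 0.02, with spike-in scaling alone. ZAP70, the kinase that docks on the phosphorylated chains, had a single probe that read 394 against 316, a difference of 0.04. It was within 1 spot SD of 0, and 87.7% of all genes had a difference of larger size. ZAP70 had -0.06 with the local median subtracted and positive values under the other 13 ways of processing.

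Differences between members do not depend on a scaling by one factor. The 10 pairs of members compared here were chosen after their values were seen. Of the 14 other ways of processing, 6 left these gaps as they were (5 for CD3G and CD3D), and ranges in parentheses are over all 14. LCK lay below ZAP70 by -0.38 and below it under the 8 that changed the gap (-0.48 to -0.17). CD3G lay above CD3D by 0.34 and above it under the 9 that did (0.23 to 0.50). A gap has an SD of 0.14 from replicate spots, but it sets different probes against each other, and from the spread between probes of one gene its SD is 0.27 over the members and 0.36 over all genes. The gaps of LCK to ZAP70 and of CD3G to CD3D lie within 2 of these larger SDs. CD3G also lay above CD247, by 0.40 (0.09 to 0.40), and above LCK, by 0.56 (0.30 to 0.56). Its gaps to CD3E, 0.38, and to CD4, 0.63, turned negative under 2 and 1 of the 8, down to -0.38 and -0.16. As reported, each gap of CD3G uses its brightest probe, for which no Ensembl transcript is listed. CD4 lay below CD3E by -0.25 (-0.31 to -0.10). The gap of CD4 to CD8A was -0.18 and turned positive under 2 of the 8, up to 0.40 with the dimmest probe. CD8A and CD8B were -0.12 apart, and CD247 and CD3E -0.01 by their brightest probes.

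**Figure D3:**
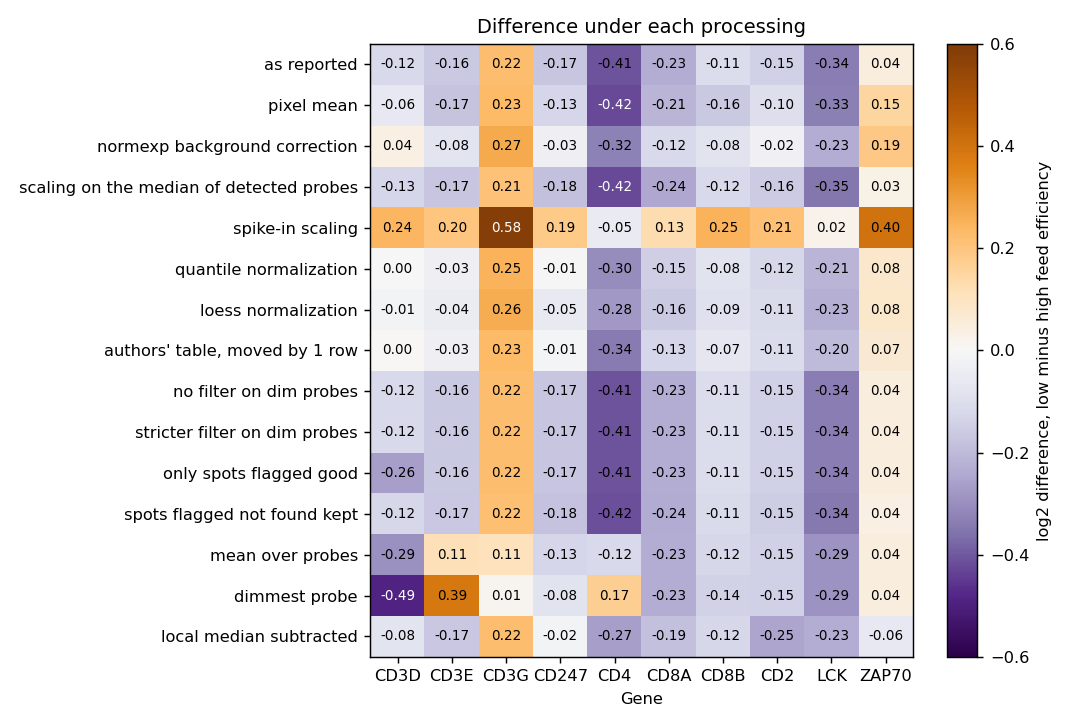
log2 difference, low minus high efficiency, of each of the 10 genes (columns) as reported and under the 14 other ways of processing (rows), with the value in each cell and purple for lower, orange for higher in low feed efficiency. Spike-in scaling moves every gene up and leaves CD4 alone below 0 (-0.05), while the dimmest probe turns CD3E (0.39) and CD4 (0.17).

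The antigen-binding chains themselves could not be described, since 8 of 10 genes on that list had no probe named for them. PTCRA, the pre-T cell receptor alpha gene, read 72 against 59 (0.01), and TRAT1, an adaptor of the receptor complex, 12 against 12 near background (-0.27). Of 96 genes of the pathway that are no members, 69 were above background on both arrays, 35 of these lay below 0, and 1 was 2-fold apart. Their median was -0.003, against -0.04 over all genes and -0.15 for the 10 members.

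Of 27 genes of proximal signalling, below LCK and ZAP70, 22 were measured, 13 below and 9 above 0, with a median of -0.01 and none 2-fold apart. The brightest were ITPR1, the calcium channel of the endoplasmic reticulum, and VAV1, a guanine nucleotide exchange factor. ITPR1 read 62317 against 65510 with 14% and 88% of the spot's pixels saturated, so its difference of -0.35 has no exact size, and VAV1 read 7234 against 7470 (-0.32). Of 17 negative regulators 14 were measured, 8 below and 6 above 0, with a median of -0.11. SIT1, a transmembrane adaptor that dampens receptor signals, read 5889 against 5559 (-0.19), and the phosphatase gene PTPN6 read 3442 against 3105 (-0.13, another probe -0.97). PAG1, which anchors the kinase CSK that holds LCK inactive, was farthest from 0 with -0.92 at 23 against 36, near background (-0.35 at the least under the other ways of processing).

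Of 20 costimulatory and accessory receptor genes 15 were measured, 9 below and 6 above 0, with a median of -0.02. CD40LG, the helper T cell ligand of CD40, was the 1 gene at least 2-fold apart, at 11 against 26 (-1.52). The lower of these readings lay at the background cut, and with normexp the difference was -0.20. CD48 read 8295 against 6048 (0.18) and PTPRC, the CD45 phosphatase that activates LCK, 1804 against 1572 (-0.08). Of 22 genes of T cell identity and traffic 16 were measured, 4 below and 12 above 0, with a median of 0.06. TCF7, a transcription factor of T cells, had 0.03. The survival receptor gene IL7R was farthest from 0 with 0.79 at 44 against 21 (0.26 to 1.15 under the other ways of processing).

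**Figure D4:**
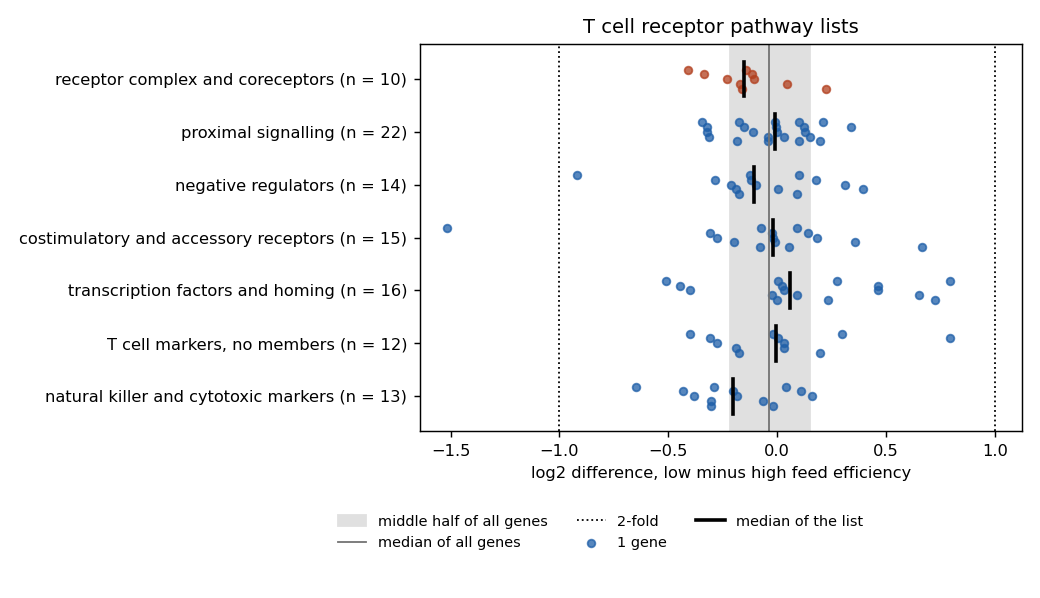
log2 difference, low minus high efficiency, of every measured gene (points) of the members, 4 further pathway lists and 2 marker lists, with list medians as black bars and the quartiles of all genes in grey. The members' median is -0.15 and that of natural killer and cytotoxic markers -0.20, while T cell markers that are no members have -0.01; CD40LG at -1.52 is the single gene beyond 2-fold.

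Markers of blood cell types were read beside the members. Of 15 T cell markers that are no members 12 were measured, 6 below and 6 above 0, with a median of -0.01, and their scaled signals summed to 134 on the low and 141 on the high efficiency array. For the 10 members this sum was 270 against 324, of which the single bright CD4 probe gave 96.6 and 128, and without CD4 it was 173 against 196. For markers of natural killer and cytotoxic cells the median was -0.20 with 10 of 13 below 0 (18 listed), and a summed signal of 286 against 338. Of their receptor genes NCR1 read 13 against 14 near background (-0.38) and KLRK1 81 against 62 (0.11). KLRB1 read 27 against 20, also near background (0.16, and 0.003 at the least under the other ways of processing). KLRD1 and KLRF1 were below background on both arrays. The granule gene NKG7 was farthest from 0 on that list, with 674 against 872 (-0.65). Gamma-delta T cell markers had a median of 0.11 over 5 measured of 8, B cells -0.10 (13 of 14), monocytes -0.15 (9 of 11), neutrophils 0.11 (13 of 14), erythroid cells 0.13 (7 of 11) and platelets -0.44 (9 of 10). The gamma-delta T cell markers ran from -0.27 for WC1 (29 against 29) to 0.86 for SOX4 (110 against 50). The probes of WC1.3 ran from -0.24 to 0.73, and GATA3 also stands on the list of T cell identity and traffic. The summed signals of gamma-delta T cell markers were 16.8 against 15.6, of B cell markers 111 against 119 and of monocyte markers 310 against 353. Those of neutrophil markers were 846 against 752, of erythroid markers 514 against 446 and of platelet markers 316 against 315. The brightest genes weigh most in these sums too. They were S100A12 for neutrophils (48851 against 34561, 0.22), HBA for erythroid cells (26648 against 20058, 0.13) and FCN1 for monocytes (14978 against 16485, -0.41). For T cells it was SIT1 (5889 against 5559, -0.19) and for platelets GNG11 (15225 against 10797, 0.22). Of the 9 measured platelet markers 6 lay below 0. The second brightest monocyte marker, LYZ, read 11367 against 7550 (0.32, another probe -0.05), and 6 of 9 measured monocyte markers lay below 0. The erythroid genes did not move one way: the globin genes HBA, HBB and HBG and CA2 lay above 0 (0.13 to 0.33), while ALAS2, a gene of heme synthesis, read 112 against 248 (-1.42), and GATA1 (-0.59) and AHSP (-0.36) lay below 0. The part of blood cell makeup in the members' differences was not tested.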

How the data were processed

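Intensity values come from the scanner files the authors deposited: a spot's pixel median less a background estimated on negative controls, exported by GenePix Pro 6.1.0.4 per the file headers (Agilent Feature Extraction, per the submitters' processing notes). The deposited files also hold the percent of a spot's pixels at saturation and a score that flags a spot as good (100), unflagged (0) or not found (-50). The authors' deposited log2 table, of unstated normalization, ranked probes like the scanner values after a move by 1 row (Spearman's rho 1.00 on both arrays; 0.077 and 0.072 without it), and served as an alternative in this form.

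Control spots, and bright spots flagged not found, were left out. A probe was above background at over 3 robust SDs above the median negative control (10.9 on each array); 24329 probes passed on the low and 22718 on the high efficiency array. Probes were named by RefSeq accession, else by symbol, through a gene table of the assembly ARS-UCD2.0, used for names and gene order. Of a gene's probes that passed on both arrays the brightest gave its value. In each other pathway list the 2 brightest genes, any 2-fold apart and the one farthest from 0 were named; 1 gene that the rule names is not reported here. Probe and protein sequences were not used here. The members and lists were chosen with earlier results of these data known. limma 3.58.1 gave the normexp values (offset 50). The reduction to genes was tested on simulated data with planted changes larger than any member's difference and no effect of probe or spot position. It is no check on differences as small as those of the members.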

Additional observations from a re-analysis of the deposited data

How the results depend on the processing

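The count of members 2-fold apart was 0 under all 14 other ways of processing, where 0.281% to 11.1% of all genes were. No member was 1.5-fold apart, where 5.82% of all genes were. The members' median of -0.15 moved by more than the spot SD under 2 of them: it was 0.21 with spike-in scaling, where 1 of 10 members and 12.3% of all genes lay below 0, and -0.05 in the authors' table moved by 1 row. It was -0.054 with normexp, -0.057 with quantile normalization and -0.070 with loess, shifts that stayed under this cut. The spot SD is that of 1 probe and not of a median over genes. Relative to all genes the members' median ran from -0.13 to -0.03. Of the 140 values of single members under these settings, 46 moved by more than the spot SD and 12 changed sign, 7 of these with spike-in scaling. The dimmest probe and the local median were chosen after seeing the data. Over all genes, 97 (0.938%) were 2-fold apart, but 234 (2.26%) with spike-in scaling and 1737 of 15579 (11.1%) with no filter on dim probes. With the stricter filter 31 of 8047 (0.385%) were, and with spots flagged good alone 24 of 8540 (0.281%). No paired analysis was possible because each group has 1 array. Signal over background limits CD4 and CD8A, which rest on 1 bright probe each.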
